A study of Mus musculus with 9 samples.

Results

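AP-1 is a transcription factor made of 2 proteins of the FOS, JUN, ATF and BATF families, and the values of 9 genes for such proteins were followed in bone marrow cells of mice with a leukaemia fusion gene. The 9 genes were Fos, Fosb and Fosl2, Jun, Junb and Jund, Atf3, and Batf and Batf3, chosen by name from the 43629 Ensembl genes of the deposited table. Their proteins pair through a leucine zipper and bind DNA through a neighbouring basic region, at the AP-1 element or the related cAMP response element. JUN proteins can pair with themselves or with FOS proteins, while FOS and BATF proteins need a partner such as a JUN protein. Fos, Jun and Fosb are immediate early genes, whose transcripts appear within minutes of a growth factor or stress signal and decay quickly, and in blood cells AP-1 acts in myeloid differentiation and cytokine responses.

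RNA sequencing had been run on c-KIT+ cells, that is, cells bearing the stem cell factor receptor of blood progenitors, taken by positive magnetic selection from bone marrow of C57BL/6 mice. The 3 groups had 3 libraries each. KI_Chd7del mice were Chd7f/f, Mx1-Cre, Cbfb+/56M, so they carried Cre under the interferon-inducible Mx1 promoter, a conditional allele of the CBFB-MYH11 fusion known from human acute myeloid leukaemia, and loxP-flanked alleles of the chromatin remodeller gene Chd7. KI mice were Mx1-Cre, Cbfb+/56M, with the same fusion and no floxed Chd7 named in the label. WT mice were labelled wild type. The mice of all groups had received pIpC, a double-stranded RNA that raises interferon and so switches on Mx1-Cre. Because the WT label names no Mx1-Cre, the fusion and Cre could not be told apart in a comparison with WT. Mx1-Cre acts in blood cells of all kinds and in some other tissues. The labels gave no ages and did not say whether each library stood for its own mouse, so a p-value speaks only of variation among these libraries.

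Each value is a number of reads per gene that the authors divided by a size factor for the library and rounded, called a normalised value here. Totals were 37.5 to 38.1 M in KI_Chd7del, 37.7 to 39.0 M in KI and 43.2 to 46.2 M in WT. Kit, which marks the selected cells, stood at 6131, 7732 and 8508 in KI_Chd7del, at 3868, 3226 and 3521 in KI and at 7362, 7354 and 7797 in WT. Chd7 stood at 1862, 1794 and 1921 in KI_Chd7del, against 1979, 2934 and 2009 in KI and 3471, 3745 and 3982 in WT, a difference of KI_Chd7del from KI that did not pass the test (adjusted p = 0.121). Against WT, Chd7 was lower both in KI (log2 fold change -0.72, adjusted p = 0.00154) and in KI_Chd7del (-1.0, adjusted p = 0.000374). A value over the whole gene does not check the deletion of a floxed exon. Myh11, the fusion's other gene, was at 187, 164 and 176 in KI_Chd7del, at 219, 194 and 176 in KI and at 8, 9 and 5 in WT. The summed share of 10 late neutrophil markers was 3.43% to 4.44% of the library in KI_Chd7del, 0.411% to 1.88% in KI and 10.1% to 11.8% in WT, with no overlap between groups. In bulk samples, fewer cells of a type and less RNA per cell cannot be told apart.

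The promoters of 4 of the genes are shown because their values moved in pairs: Fos with Jun, and Atf3 with Batf3. Each runs 5′ to 3′ on the strand of the gene, from 250 bases before to 50 bases after the RefSeq start of transcription in GRCm38.p6, and capitals mark the motif found. All 9 genes had a RefSeq promoter. Those shown lie at chr12:85473640-85473939 on the plus strand for Fos, chr4:95052173-95052472 on the minus strand for Jun, chr1:191183284-191183583 on the minus strand for Atf3 and chr1:191098164-191098463 on the plus strand for Batf3.
Fos: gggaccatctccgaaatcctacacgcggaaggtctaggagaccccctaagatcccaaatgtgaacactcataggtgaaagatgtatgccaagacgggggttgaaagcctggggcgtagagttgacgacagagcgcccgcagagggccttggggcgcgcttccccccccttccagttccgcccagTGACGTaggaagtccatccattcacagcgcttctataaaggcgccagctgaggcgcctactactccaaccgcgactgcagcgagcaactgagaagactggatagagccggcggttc
Jun: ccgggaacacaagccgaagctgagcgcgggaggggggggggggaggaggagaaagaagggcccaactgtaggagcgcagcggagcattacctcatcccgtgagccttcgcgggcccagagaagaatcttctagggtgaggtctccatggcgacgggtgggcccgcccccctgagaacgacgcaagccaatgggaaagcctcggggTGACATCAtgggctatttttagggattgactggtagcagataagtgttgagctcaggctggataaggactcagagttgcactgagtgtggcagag
Atf3: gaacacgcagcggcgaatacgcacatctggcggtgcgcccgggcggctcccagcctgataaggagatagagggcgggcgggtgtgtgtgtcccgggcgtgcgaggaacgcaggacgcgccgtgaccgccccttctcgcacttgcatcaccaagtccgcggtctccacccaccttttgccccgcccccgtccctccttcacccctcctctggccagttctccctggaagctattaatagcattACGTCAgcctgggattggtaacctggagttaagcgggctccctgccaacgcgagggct
Batf3: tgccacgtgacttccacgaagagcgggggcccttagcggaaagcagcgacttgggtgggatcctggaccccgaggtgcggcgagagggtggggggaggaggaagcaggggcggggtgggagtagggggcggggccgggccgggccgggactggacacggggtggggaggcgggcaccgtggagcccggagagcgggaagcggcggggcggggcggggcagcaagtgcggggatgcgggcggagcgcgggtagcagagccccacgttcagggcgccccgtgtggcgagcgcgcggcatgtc

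Both strands of all 9 promoters were searched for the AP-1 element TGACTCA, the full cAMP response element TGACGTCA, its core TGACGT, which is contained in the full element, and the serum response element. The core was found in 3 of the 9, with its first base 66 bases before the start of Fos, 98 bases before that of Batf and, on the other strand, 8 bases before that of Atf3. Among 32851 RefSeq promoters of this length 7.51% held the core. The octamer TGACATCA, added after the promoters had been read, lay 45 bases before the start of Jun and was held by 3.62% of promoters. Neither the AP-1 element (5.2% of promoters), the full cAMP response element (1.79%) nor the serum response element (1.63%) was in any of the 9 windows, and Fosb, Fosl2, Junb, Jund and Batf3 held none of the motifs. The Atf3 start used lies 34706 bases inside the longest annotated gene, that of Fosl2 671 bases inside and that of Batf3 567 bases inside. The Jund start used lies 1210 bases before the annotated gene, so its window does not reach that gene. A match is a description of the sequence, and motifs outside these windows were not searched.

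The 9 genes fell into 3 patterns. Atf3 and Batf3, and to a small extent Batf, were highest in KI in all libraries, with KI_Chd7del closer to WT. Fos, Jun and Fosb were higher in every KI_Chd7del library than in any KI library, and they varied widely between libraries of 1 group, Fos and Jun most of all in WT. Fosl2, Junb and Jund differed by less than 1.5-fold between group averages. All 9 genes passed the filter (a value of 10 or more in at least 3 libraries) and were tested among 15997 genes with limma, with Benjamini-Hochberg adjustment over all of them and a threshold of 0.05.

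Counted over the 9 genes, 4 passed the test in KI_Chd7del against KI, where 40.4% of all tested genes passed. Fosb was higher (17.5% of all genes) and Atf3, Batf3 and Batf were lower (22.9%). In KI against WT 4 passed, beside 58.9% of all genes, with Atf3, Batf3 and Batf higher (31.8%) and Fosl2 lower (27.2%). In KI_Chd7del against WT 4 passed, beside 48.4% of all genes, with Atf3, Batf3 and Fosb higher (24.0%) and Fosl2 lower (24.3%). Groups did not overlap for 6 of the 9 genes in KI_Chd7del against KI, beside 52.0% of all genes, with Fos, Fosb and Jun higher (23.8%) and Atf3, Batf3 and Batf lower (28.2%). They did not overlap for 3 genes in KI against WT, all higher, beside 67.6% of all genes (35.9% higher and 31.8% lower), and for 3 in KI_Chd7del against WT, Atf3 and Batf3 higher (28.9%) and Fosl2 lower (28.8%), beside 57.6% in all. With such backgrounds the counts are no result about the family, and what follows concerns the size and the pattern of each gene's change. The comparisons share libraries, since each group enters 2 of them.

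**Figure D1:**
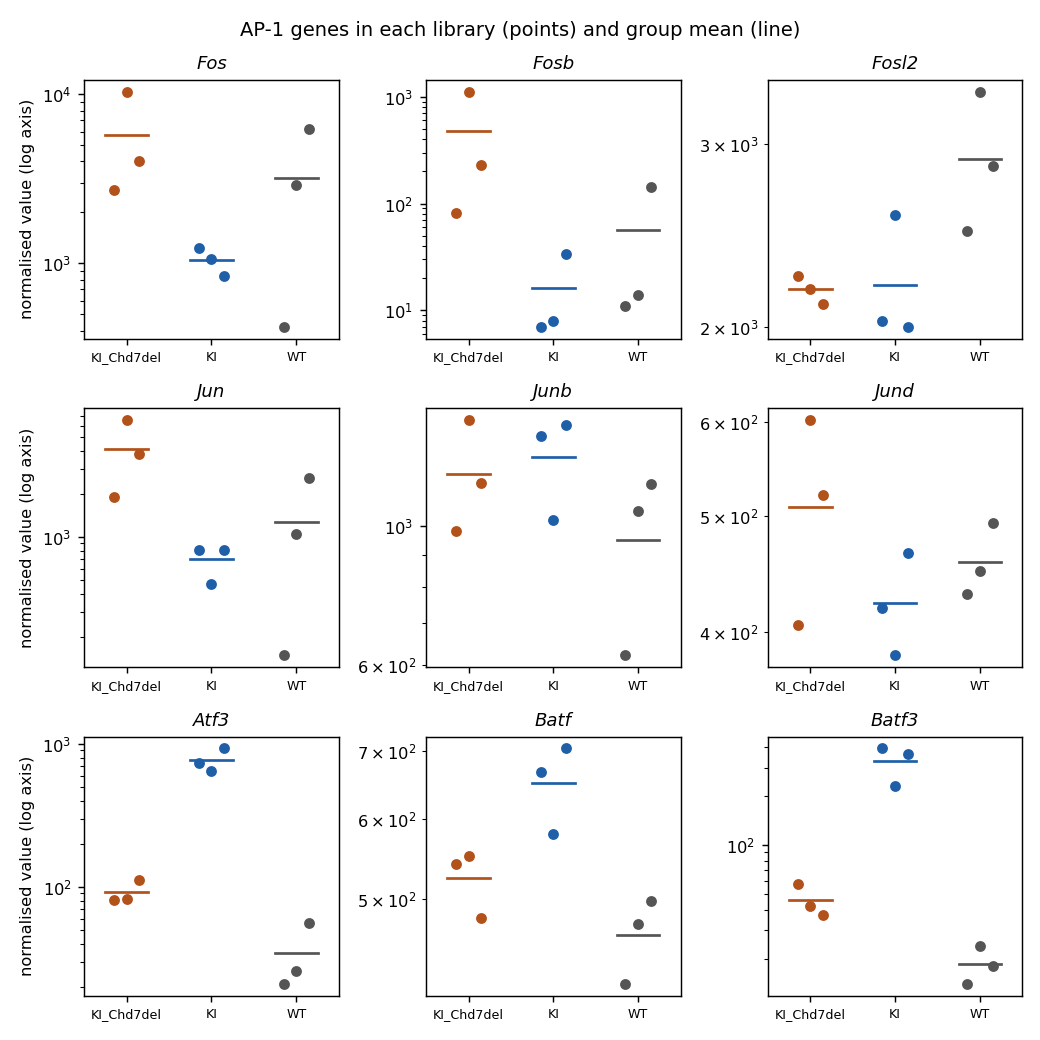
Normalised value of each of the 9 AP-1 genes (log axis, its range set per gene) in the 3 libraries of KI_Chd7del, KI and WT. Points are libraries and short lines are group means. For Atf3, all KI libraries lie between 647 and 930, above all others, while the Fos values in WT spread from 420 to 6247.

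Atf3 encodes a stress-induced factor that often represses its targets. It reached 81, 83 and 111 in the KI_Chd7del libraries, 731, 647 and 930 in the KI libraries and 21, 26 and 56 in the WT libraries. The 3 groups did not overlap, and every KI library stood far above the rest. Atf3 was 23.5-fold higher in KI than in WT (log2 fold change 4.56, SE 0.33, adjusted p = 4.73e-06, n = 3 each) and 8.30-fold lower in KI_Chd7del than in KI (log2 fold change -3.05, SE 0.33, adjusted p = 0.000228). In KI_Chd7del it was still 2.84-fold higher than in WT (log2 fold change 1.5, SE 0.33, adjusted p = 0.00489). Fold changes are on the log2(value + 1) scale, which understates those of low values.

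Batf3 encodes a small partner of JUN proteins and is known for its need in type 1 dendritic cells. Its values were 58, 42 and 37 in KI_Chd7del, 393, 231 and 365 in KI and 14, 24 and 18 in WT. As for Atf3, the groups did not overlap and came in the order KI, KI_Chd7del, WT. Batf3 was 16.8-fold higher in KI than in WT (log2 fold change 4.07, SE 0.28, adjusted p = 3.88e-06), 7.03-fold lower in KI_Chd7del than in KI (log2 fold change -2.81, SE 0.28, adjusted p = 0.000166) and 2.38-fold higher in KI_Chd7del than in WT (log2 fold change 1.25, SE 0.28, adjusted p = 0.0058). All 3 differences of Atf3 and of Batf3 passed the test in each of 19 alternative settings, the fits without 1 library included.

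Batf, whose protein pairs with JUN proteins and acts with IRF4 in lymphocytes, moved in the same order by much less. Values of 541, 551 and 479 in KI_Chd7del stood against 668, 580 and 704 in KI and 412, 472 and 498 in WT. The KI libraries were above all others, by a narrow margin, and the KI_Chd7del and WT libraries overlapped. Batf was 1.41-fold higher in KI than in WT (log2 fold change 0.50, SE 0.11, adjusted p = 0.00313). It was lower in KI_Chd7del than in KI (log2 fold change -0.31, SE 0.11, adjusted p = 0.0444), a call that passed in only 6 of 19 alternatives, with adjusted p between 0.023 and 0.147. Batf in KI_Chd7del differed from WT by a log2 fold change of 0.19 (95% interval -0.06 to 0.43), which did not pass the test (adjusted p = 0.179), while scaling to the column total gave 0.43 (adjusted p = 0.00559). The ratio of the Batf3 value to the Batf value was 0.107, 0.0762 and 0.0772 in KI_Chd7del, 0.588, 0.398 and 0.519 in KI and 0.0340, 0.0509 and 0.0361 in WT, with no overlap between groups.

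Markers of some other cell types also had their highest summed share in KI. Of 10 monocyte and macrophage markers, 1 was higher and 8 were lower in KI_Chd7del than in KI, and 8 were higher and 1 lower in KI than in WT. Their summed share was 0.344% to 0.394% in KI_Chd7del, 0.636% to 0.685% in KI and 0.143% to 0.152% in WT. The 8 dendritic cell markers took 0.0942% to 0.149% in KI_Chd7del, 0.257% to 0.294% in KI and 0.0379% to 0.0605% in WT, with 2 higher and 5 lower in KI_Chd7del than in KI and 8 higher in KI than in WT. The 9 mast cell and basophil markers took 0.169% to 0.221% in KI_Chd7del, 0.313% to 0.486% in KI and 0.0629% to 0.0643% in WT, with 3 higher and 6 lower in KI_Chd7del than in KI, and 6 higher and 3 lower in KI than in WT. The 8 erythroid markers took 0.0826% to 0.136% in KI_Chd7del, 0.257% to 0.377% in KI and 0.126% to 0.153% in WT, with 1 higher and 6 lower in KI_Chd7del than in KI, and 3 higher and 3 lower in KI than in WT. Unlike the values of Atf3 and Batf3, the erythroid shares of KI_Chd7del and WT overlapped. The shares of stem and progenitor markers overlapped between KI_Chd7del (0.0715% to 0.0765%) and KI (0.0619% to 0.0808%). Those of eosinophil markers and of T and NK cell markers were lowest in KI. None of these markers was at 0 throughout a group. Their part in the result was not tested.

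Fos encodes the founding FOS protein. It was at 2721, 10376 and 4040 in KI_Chd7del, at 1232, 1054 and 842 in KI and at 420, 2910 and 6247 in WT. Every KI_Chd7del library exceeded every KI library, whereas WT held both the lowest library of all 9 and the second highest. The difference between KI_Chd7del and KI was 4.70-fold (log2 fold change 2.23, SE 0.87, 95% interval 0.28 to 4.19) and did not pass the test (adjusted p = 0.0669). It passed in 3 of 19 alternatives: without WT library 1 (adjusted p = 0.0086), without WT library 3 (adjusted p = 0.0398) and in a fit of only KI_Chd7del and KI (adjusted p = 0.0118), where the wide WT values no longer enter the shared estimate of the spread. Without KI_Chd7del library 2 the log2 fold change was 1.69 (adjusted p = 0.198). KI differed from WT by -0.93 (SE 0.87, 95% interval -2.89 to 1.02, adjusted p = 0.378), which became -2.05 without WT library 1 (adjusted p = 0.0124) and -0.10 without WT library 3 (adjusted p = 0.922). KI_Chd7del differed from WT by 1.30 (SE 0.87, 95% interval -0.66 to 3.25, adjusted p = 0.243). That value was 0.19 without WT library 1, 2.13 without WT library 3 and 0.75 without KI_Chd7del library 2, and passed the test in none of the 19 alternatives.

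Jun, the founding JUN gene, ran closely with Fos. The libraries held 1909, 6584 and 3816 in KI_Chd7del, 812, 471 and 812 in KI and 148, 1045 and 2593 in WT. Again the KI_Chd7del and KI libraries did not overlap, and WT spanned the range of KI. Jun differed by 5.36-fold between KI_Chd7del and KI (log2 fold change 2.42, SE 0.90, 95% interval 0.40 to 4.45) and missed the threshold (adjusted p = 0.057). In 6 of 19 alternatives it passed, with adjusted p between 0.00688 and 0.163 over all of them, the highest without KI_Chd7del library 2 (log2 fold change 1.99). KI differed from WT by a log2 fold change of -0.12 (SE 0.90, 95% interval -2.15 to 1.90, adjusted p = 0.914), whose sign turned in 4 alternatives, and KI_Chd7del from WT by 2.30 (SE 0.90, adjusted p = 0.06), which became 3.20 without WT library 3 (adjusted p = 0.0141) and 1.14 without WT library 1 (adjusted p = 0.128). The antisense gene Junos shares 232 exon bases with Jun, and whether the counting used strand is not given in the sources used here, so reads there could not be assigned to 1 of the pair. Junos was at 2, 318 and 264 in KI_Chd7del, at 101, 185 and 52 in KI and at 578, 572 and 614 in WT. Unlike Jun it was highest in WT, though within KI_Chd7del it ranked the libraries as Jun did.

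Fosb is another immediate early gene, with a FOS-like product that also exists in a truncated, long-lived form. Its values were 82, 1121 and 231 in KI_Chd7del, 7, 8 and 34 in KI and 11, 14 and 144 in WT. The lowest KI_Chd7del library was above the highest KI library, and 5 of the 6 KI and WT libraries were at 34 or less. Fosb was 20.5-fold higher in KI_Chd7del than in KI (log2 fold change 4.36, SE 1.16, adjusted p = 0.0162), the only one of the 9 genes that was called higher in this comparison. The call was lost without KI library 1 (adjusted p = 0.056), without KI_Chd7del library 2 (log2 fold change 3.35, adjusted p = 0.0537) and with voom weights (adjusted p = 0.072). Against WT, Fosb was higher in KI_Chd7del (log2 fold change 3.23, SE 1.16, adjusted p = 0.0443), although the groups overlapped and the call passed in 9 of 19 alternatives; it was 2.23 without KI_Chd7del library 2 (adjusted p = 0.149). KI differed from WT by -1.12 (SE 1.16, 95% interval -3.74 to 1.49, adjusted p = 0.427), a value set by WT library 3, without which it was 0.02.

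**Figure D2:**
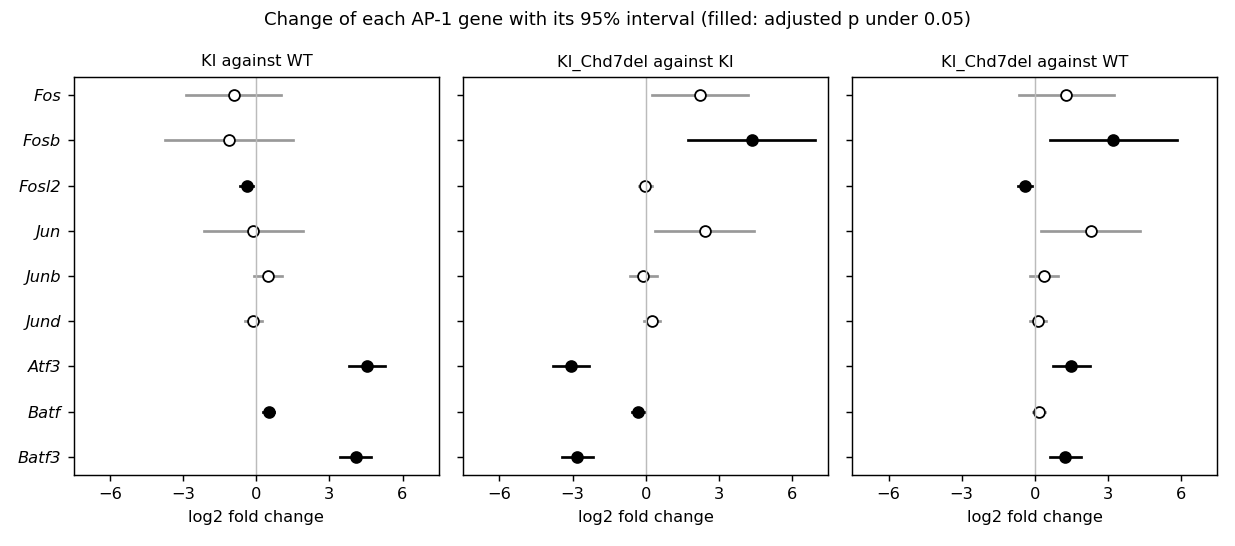
Log2 fold change of each AP-1 gene with its 95% interval in the 3 comparisons, with filled points where the adjusted p was under 0.05. The intervals of Fos, Jun and Fosb are several log2 units wide, whereas those of Atf3 and Batf3 lie wholly above 0 for KI against WT and wholly below 0 for KI_Chd7del against KI.

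The other members of the FOS and JUN families moved little. Fosl2, which encodes FRA-2 and is less tied to the immediate early response, was at 2242, 2178 and 2105 in KI_Chd7del, at 2027, 2565 and 2001 in KI and at 2475, 3374 and 2859 in WT. The KI_Chd7del libraries were below all WT libraries, and 1 KI library lay within the WT range. Against WT it was lower in KI_Chd7del, by a log2 fold change of -0.41 (SE 0.12, adjusted p = 0.0227), and in KI, by -0.40 (SE 0.12, adjusted p = 0.0196), and both calls were lost with scaling to the column total (-0.16, adjusted p = 0.262, and -0.17, adjusted p = 0.227). Leaving out KI library 1, KI library 3 or WT library 2 also ended the call of KI against WT (adjusted p 0.0688, 0.0696 and 0.0697), and leaving out KI_Chd7del library 2 or 3 or WT library 2 or 3 ended that of KI_Chd7del against WT (adjusted p 0.0551 to 0.0801). KI_Chd7del and KI differed by -0.01 (95% interval -0.28 to 0.27).

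Junb, whose product can restrain JUN and limits the growth of myeloid cells in mice, was at 983, 1478 and 1173 in KI_Chd7del, at 1394, 1025 and 1452 in KI and at 622, 1058 and 1169 in WT. The groups overlapped in every pairing. KI_Chd7del differed from KI by a log2 fold change of -0.09 (SE 0.25, 95% interval -0.65 to 0.46, adjusted p = 0.782), and KI from WT by 0.48 (SE 0.25, 95% interval -0.08 to 1.04, adjusted p = 0.125), which became 0.71 with scaling to the column total (adjusted p = 0.0241). KI_Chd7del differed from WT by 0.38 (SE 0.25, adjusted p = 0.23), and by 0.63 with that scaling (adjusted p = 0.0426). Junb shares 173 exon bases with Prdx2 on the other strand, a gene with values up to 15943.

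Jund, which encodes the most steadily expressed JUN protein, was at 405, 602 and 521 in KI_Chd7del, at 419, 382 and 466 in KI and at 430, 450 and 493 in WT. Its groups overlapped throughout, and no comparison passed the test with all libraries and the deposited scaling (adjusted p = 0.187 for KI_Chd7del against KI, 0.461 for KI_Chd7del against WT and 0.506 for KI against WT). The interval of the difference between KI_Chd7del and KI ran from -0.07 to 0.58 on the log2 scale around 0.26. Without KI_Chd7del library 1 it was 0.41 (adjusted p = 0.0243) and without KI_Chd7del library 2 it was 0.13 (adjusted p = 0.514). KI_Chd7del against WT gave 0.14, which was 0.38 with scaling to the column total (adjusted p = 0.0476). Jund shares 877 of its 1668 exon bases with the antisense gene Gm11175, listed at 0 in all libraries. As for Jun, reads there could not be assigned to 1 of the pair.

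The spread within groups was wide for the immediate early members, though not for them alone. The SD of log2 values of Fos was 0.99 in KI_Chd7del, 0.28 in KI and 2.01 in WT, where the median of 11447 genes with a mean value of at least 100 was 0.10, 0.09 and 0.08 in the same order of groups. Of those genes, 98.4% varied less than Fos in KI_Chd7del, 87.2% in KI and 99.8% in WT. For Jun the SD was 0.89 in KI_Chd7del, 0.45 in KI and 2.11 in WT, and 97.9%, 94.4% and 99.9% of genes in those groups varied less. WT library 3 held 14.9 times the Fos value and 17.5 times the Jun value of WT library 1. Other members varied widely too. In WT, 98.8% of the 11447 genes varied less than Atf3, 97.3% less than Junb and 95.5% less than Batf3, though Atf3 and Batf3 were low there. In KI, Batf3 varied more than Fos (SD 0.41, with 93.4% of genes varying less), and Junb (87.1%) and Atf3 (86.3%) stood close to Fos. In KI_Chd7del the shares were 89.7% for Batf3, 88.0% for Junb and 87.6% for Jund. Fosb had an SD of 1.89 in KI_Chd7del, 1.18 in KI and 1.99 in WT, with low values in KI and WT. Batf, with an SD of 0.11 in KI_Chd7del, 0.14 in KI and 0.14 in WT, varied about as much as many other genes.

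The Fos and Jun values went up and down together in KI_Chd7del and WT and did not in KI, where Jun was lowest in library 2 and Fos in library 3. Their log2 values correlated over the 9 libraries with Pearson's r = 0.94, and those of Atf3 and Batf3 with r = 0.97, as descriptions over points that include the differences between groups. The Fos value was 1.43, 1.58 and 1.06 times the Jun value in KI_Chd7del, 1.52, 2.24 and 1.04 times in KI and 2.84, 2.79 and 2.41 times in WT. All WT ratios were above those of the other groups.

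Among 11033 named genes, those most like each member over the 9 libraries were found by Pearson's r of log2(value + 1). For Fos they were Jun (0.942), Dusp1 (0.931) and Hspa1b (0.930), and for Jun they were Fos (0.942), Hspa1b (0.889) and Vipas39 (0.889). Fosb was most like Egr1 (0.945), with Dgcr2 at 0.934. Those of Atf3 were Cd274, the gene of PD-L1 (0.994), Cysltr1 (0.991) and Arl1 (0.991), those of Batf3 Zfyve1 (0.997), Mdfic (0.996) and Snx1 (0.996), and those of Batf Cdc42se2 (0.971), Diaph1 (0.968) and Rhbdf1 (0.968). Fosl2 was closest to Jmjd6 (0.981), Junb to Tmem214 (0.924) and Jund to Prkcsh (0.958). The 9 points fall in 3 groups, so r takes in the differences between groups.

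Dusp1, which encodes a phosphatase that switches off MAP kinases, was at 835, 3345 and 1620 in KI_Chd7del, at 369, 270 and 274 in KI and at 395, 1156 and 2464 in WT. The same libraries were high as for Fos, and KI lay below both other groups. Because these genes were picked for their likeness over the same libraries, their values are a description and no test between groups is given. Egr1, an immediate early zinc finger factor, was at 147, 1071 and 361 in KI_Chd7del, at 61, 74 and 83 in KI and at 86, 148 and 329 in WT, with KI again below both other groups.

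Hspa1b, which encodes an inducible HSP70 chaperone, was at 211, 790 and 177 in KI_Chd7del, at 187, 118 and 106 in KI and at 26, 255 and 435 in WT. It too was lowest in WT library 1 and highest in KI_Chd7del library 2, and its groups overlapped. Hspa1a and Hspa1b are near-identical copies, so their separate values are uncertain.

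**Figure D3:**
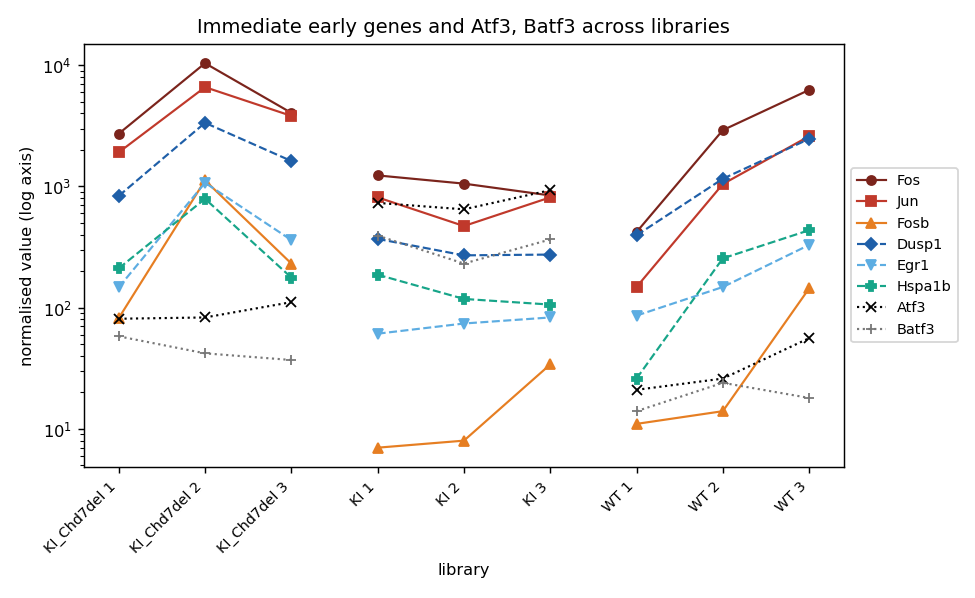
Normalised values (log axis) of Fos, Jun and Fosb, of 3 genes most like them and of Atf3 and Batf3 in the 9 libraries, with lines that only join the libraries of a group. Fos, Jun, Fosb, Dusp1, Egr1 and Hspa1b are all highest in KI_Chd7del library 2, and Atf3 and Batf3 are high in KI alone.

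The wider list of 26 immediate early genes outside AP-1 did not move one way. Over all tested genes, 17.5% were higher and 22.9% lower in KI_Chd7del than in KI, and 31.8% were higher and 27.2% lower in KI than in WT, and the counts of this and the other lists are given as descriptions beside these shares. Of 25 tested, 7 were higher and 7 lower in KI_Chd7del than in KI, with a median log2 fold change of 0.25 beside -0.01 for all genes, and 8 were higher and 9 lower in KI than in WT (median -0.15 beside 0.02). Nr4a3, a nuclear receptor gene, behaved like Atf3, with 30, 30 and 35 in KI_Chd7del, 340, 203 and 548 in KI and 19, 33 and 31 in WT. It was lower in KI_Chd7del than in KI by a log2 fold change of -3.37 (SE 0.35, adjusted p = 0.00019). Klf4, a monocyte-promoting factor, was higher in KI than in WT (log2 fold change 2.56, adjusted p = 7.18e-07), while Sik1, a kinase gene (-1.52), and Nfkbia (-1.42), the NF-kappaB inhibitor gene, were lower. Rhob, a small GTPase gene, was higher in KI_Chd7del than in KI (1.27, adjusted p = 0.00019), and Nfil3, another bZIP gene, was lower (-0.96, adjusted p = 0.000379). The summed values of the list were 34647, 38171 and 33694 in KI_Chd7del, 33659, 32058 and 34856 in KI and 31971, 37496 and 39218 in WT.

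Of 11 tested heat shock genes, 5 were higher and 0 lower in KI_Chd7del than in KI (median log2 fold change 0.35), and 0 were higher and 5 lower in KI than in WT (median -0.20). Dnaja1 (0.64), Hsph1 (0.88) and Hspe1 (0.35) rose in KI_Chd7del over KI, and the same 3 were lower in KI than in WT (-0.43, -0.87 and -0.49). Their sums were 255113, 312133 and 294816 in KI_Chd7del, 238335, 224635 and 232450 in KI and 239872, 249909 and 234339 in WT. The KI_Chd7del sums were above all others, and the WT and KI sums overlapped, with WT library 3, the highest in Fos, the lowest of WT.

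Other markers were also higher in KI_Chd7del than in KI, as Fos, Jun and Fosb were. All 10 late neutrophil markers passed as higher there and as lower in KI against WT. Of 6 megakaryocyte markers, 5 were higher and 0 lower in KI_Chd7del than in KI, and 1 was higher and 4 lower in KI than in WT, with summed shares of 0.00619% to 0.0119% in KI_Chd7del, 0.00625% to 0.0103% in KI and 0.00477% to 0.00737% in WT. Of 8 B cell markers, 6 were higher and 0 lower in KI_Chd7del than in KI, and 1 was higher and 1 lower in KI than in WT, with summed shares of 0.0233% to 0.045% in KI_Chd7del, 0.0132% to 0.0209% in KI and 0.014% to 0.0167% in WT. Of 8 stem and progenitor markers, 5 were higher and 2 lower in KI_Chd7del than in KI, and 5 were higher and 1 lower in KI than in WT. Eosinophil markers gave 3 higher and 2 lower in KI_Chd7del than in KI, and T and NK cell markers 2 higher and 1 lower. None of these markers was at 0 throughout a group, and their part in the result was not tested.

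Levels of different genes can be compared roughly per kilobase of exon. The length used covers all annotated exons of a gene (9680 bases for Fosl2, 6243 for Fosb and 1668 for Jund), so the order of genes is approximate. By this measure the AP-1 pool of KI was made up differently from that of KI_Chd7del, while WT and KI_Chd7del overlapped. In KI_Chd7del the highest mean level was that of Fos (2429 ± 1740, SD, n = 3), followed by Jun (1287 ± 737), Junb (526.4 ± 109), Batf (372.5 ± 27.7), Jund (305.4 ± 59.4), Fosl2 (224.7 ± 7.08), Fosb (76.6 ± 90.0), Atf3 (42.6 ± 7.79) and Batf3 (28.6 ± 6.87). Fos and Jun differed by less than the SD of Fos, as did Fosb and Atf3 by less than that of Fosb. In KI the order was Junb (560.8 ± 101), Batf (462.8 ± 45.4), Fos (443.3 ± 83.0), Atf3 (357.2 ± 67.5), Jund (253.2 ± 25.2), Fosl2 (227.0 ± 32.9), Jun (219.0 ± 61.7), Batf3 (206.4 ± 54.2) and Fosb (2.62 ± 2.45). There, Fos and Atf3, Atf3 and Jund, and Batf3 and Fosb were the neighbours that differed by more than the larger SD of the pair. In WT the order was Fos (1357 ± 1243), Junb (412.7 ± 126), Jun (395.7 ± 388), Batf (327.6 ± 31.4), Fosl2 (299.9 ± 46.6), Jund (274.4 ± 19.3), Atf3 (15.9 ± 8.79), Batf3 (11.7 ± 3.15) and Fosb (9.02 ± 12.2), and Jund and Atf3 were the only neighbours that differed beyond the larger SD.

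As a share of the summed level per kilobase of the 9 genes, Fos plus Jun took 56.1%, 77.7% and 66.1% in KI_Chd7del, 26.8%, 24.9% and 21.2% in KI and 17%, 52.0% and 69.6% in WT. All KI libraries were below all KI_Chd7del libraries, and the WT libraries overlapped the KI_Chd7del range and also held the lowest share of all. Atf3 plus Batf3 took 2.36%, 0.777% and 1.70% in KI_Chd7del, 20.1%, 18.6% and 22.8% in KI and 1.40%, 0.901% and 0.748% in WT. The summed level itself was 3129, 8341 and 4406 per kilobase in KI_Chd7del, 2907, 2394 and 2896 in KI and 1322, 3008 and 4983 in WT. These are transcript levels, and protein and pairing were not measured.

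**Figure D4:**
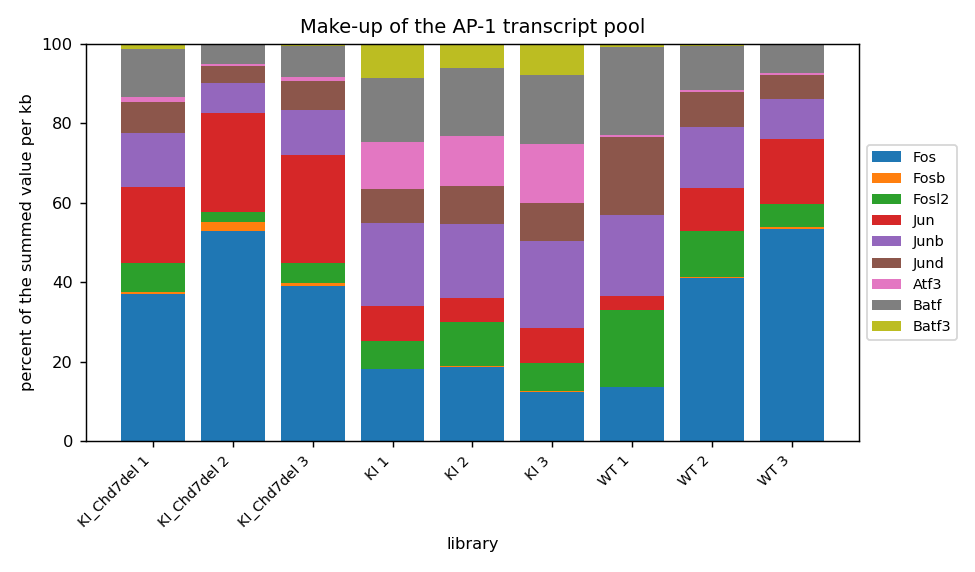
Share of each AP-1 gene in the summed normalised value per kilobase of exon, as stacked bars for each of the 9 libraries. Fos and Jun fill 56.1% to 77.7% in KI_Chd7del and 21.2% to 26.8% in KI, while the Atf3 and Batf3 layers are broad in KI alone.

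Among the remaining AP-1 and related bZIP genes, of 14 tested, 1 was higher and 6 were lower in KI_Chd7del than in KI (median log2 fold change -0.33), and 8 were higher and 2 lower in KI than in WT (median 0.65). Jdp2, whose product pairs with JUN proteins and represses AP-1 targets, was at 1141, 1151 and 1104 in KI_Chd7del, at 564, 655 and 454 in KI and at 2966, 3448 and 3317 in WT. It ran opposite to Atf3: the KI libraries were lowest and those of WT highest, without overlap. Jdp2 was higher in KI_Chd7del than in KI (log2 fold change 1.04, SE 0.12, adjusted p = 0.000321) and lower in KI than in WT (log2 fold change -2.55, SE 0.12, adjusted p = 5.09e-07).

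Mafk, which encodes a small MAF protein, was lower in KI_Chd7del than in KI (log2 fold change -0.75, adjusted p = 0.000233). Atf6, a sensor of unfolded protein, was higher in KI than in WT (log2 fold change 1.02, adjusted p = 4.18e-06). Creb5 did not reach the filter.

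Upstream, the 17 genes of the MAP kinase cascade, which carries signals to the Fos and Jun promoters, had shares of calls no higher than about the background: 2 were higher and 5 lower in KI_Chd7del than in KI (40.4% of all genes passed), and 3 higher and 6 lower in KI than in WT (58.9%). Map3k1, a kinase above JNK, was lower in KI_Chd7del than in KI (log2 fold change -0.62, adjusted p = 0.000144) and higher in KI than in WT (0.86, adjusted p = 4.07e-06). Map2k3 (-0.49) and Rps6ka3 (-0.36) were also lower in KI_Chd7del than in KI. Mapk3, which encodes ERK1, and Rps6ka1, which encodes a kinase below ERK, were lower in KI than in WT (-1.11 and -1.07).

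Of the 13 transcription factors and cofactors that act on the Fos and Jun promoters, 1 was higher and 6 were lower in KI_Chd7del than in KI, and 10 were higher and 2 lower in KI than in WT, with a median log2 fold change of 0.60 beside 0.02 for all genes. Mef2a, whose product binds the Jun promoter, was lower in KI_Chd7del than in KI (-0.73, adjusted p = 3.03e-05) and higher in KI than in WT (0.80, adjusted p = 2.31e-06). Stat3 (-0.38) and Mrtfb (-0.47), which encodes a cofactor of serum response factor, were lower in KI_Chd7del than in KI. Mrtfb was higher (1.02) and its relative Mrtfa lower (-0.94) in KI than in WT.

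The 9 genes of turnover and repression of AP-1 factors gave 2 higher and 3 lower in KI_Chd7del than in KI, and 3 higher and 2 lower in KI than in WT. Zfp36l1, which encodes a protein that destabilises mRNAs with AU-rich elements, was lower in KI_Chd7del than in KI (log2 fold change -1.13, adjusted p = 0.000213) and higher in KI than in WT (2.22, adjusted p = 1.02e-06). The ubiquitin ligase gene Fbxw7, whose product degrades JUN, was lower in KI_Chd7del than in KI (-0.60) and higher in KI than in WT (0.80). Cop1, of another ligase for JUN, was lower in KI than in WT (-0.54), and Men1, whose product represses JUND, was higher in KI_Chd7del than in KI (0.36).

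Downstream, the 16 tested genes with a known AP-1 element showed no common direction with Fos and Jun: 6 were higher and 6 lower in KI_Chd7del than in KI (median log2 fold change -0.04). In KI against WT 5 were higher and 9 lower (median -0.69). Hmox1 (-1.35), Mt1 (-0.74) and Spp1 (-0.71) were lower in KI_Chd7del than in KI, and Plau (-1.40), Plaur (-2.19) and Mmp9 (-3.55), genes of extracellular proteolysis that neutrophils also express, were lower in KI than in WT.

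The 12 BATF partners and type 1 dendritic cell genes gave 3 higher and 3 lower in KI_Chd7del than in KI, and 6 higher and 2 lower in KI than in WT. Irf4, the partner of BATF proteins at composite elements, had 775, 559 and 958 in KI_Chd7del, 2261, 1864 and 2757 in KI and 446, 418 and 531 in WT. In KI_Chd7del it was 3.03-fold lower than in KI (adjusted p = 0.000507), and in KI 4.89-fold higher than in WT (adjusted p = 1.48e-05), the order seen for Batf3. Id2 went the other way, higher in KI_Chd7del than in KI (log2 fold change 0.80, adjusted p = 0.00488) and lower in KI than in WT (-1.62, adjusted p = 3.01e-05), and Zbtb46, a classical dendritic cell gene, was lower in KI than in WT (-2.83, adjusted p = 0.000173).

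Several of the genes are neighbours. Batf3 (chr1:191097847-191108945, plus strand) and Atf3 (chr1:191170296-191218039, minus strand) lie 61.4 kb apart in GRCm38. The only protein-coding gene listed between them was Fam71a, at 0 in all libraries. Only protein-coding genes were looked at as neighbours. The nearest genes on either side, chosen by position after the values of Atf3 and Batf3 were known, moved far less. Nsl1, next to Batf3, had a log2 fold change of -0.23 in KI_Chd7del against KI (adjusted p = 0.0204) and -0.19 in KI against WT (adjusted p = 0.0264). Nenf, next to Atf3, had -0.02 (adjusted p = 0.925) and 0.12 (adjusted p = 0.538). Farther out, Flvcr1 moved in the directions of Batf3 and Atf3 by less, at -0.70 (adjusted p = 0.000517) and 0.39 (adjusted p = 0.00471). In KI against WT, Vash2 (1.34) and Tmem206 (0.80) passed as higher, and Rps6kc1 (-0.83) and Ppp2r5a (-0.66) as lower. On chromosome 12, Fos (chr12:85473890-85477273), Jdp2 and Batf (chr12:85686669-85709087) follow each other on the plus strand, with gaps of 121.8 kb and 46.8 kb, and each had its own pattern. Tmed10, next to Fos, differed by -0.06 (adjusted p = 0.537) in KI_Chd7del against KI and -0.04 (adjusted p = 0.66) in KI against WT. Erg28, the nearest tested protein-coding gene past Batf, differed by 0.18 (adjusted p = 0.0301) and -0.16 (adjusted p = 0.0294).

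**Figure D5:**
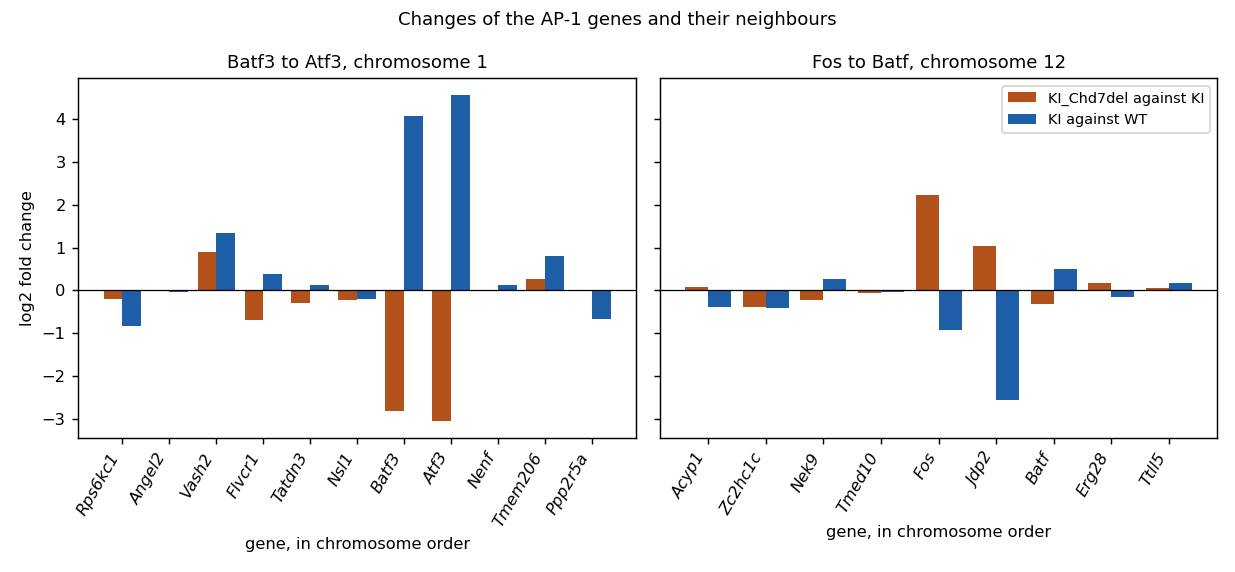
Log2 fold changes of the tested protein-coding genes around Batf3 and Atf3 (left) and around Fos, Jdp2 and Batf (right), in chromosome order, for KI_Chd7del against KI and KI against WT. Batf3 and Atf3 stand out from their neighbours, at -2.81 and -3.05 in the first comparison and at 4.07 and 4.56 in the second.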

How the data were processed

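The deposited table held 1 whole number per gene and library. Its unit is a score: the authors scaled the reads of each library by 1 size factor and deposited whole numbers. This was read from the values, since median-of-ratios factors of the columns lay between 0.989 and 1.012 and WT library 3 had 0 genes at a value of 3 and 0 at 10. The tools named, per the submitters' processing notes, were DESeq2, RSEM, STAR 2.4 and CASAVA 1.8.2, with the build GRCm38 and no role or order. Counting limits the precision of low values, such as those of Fosb.

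Symbols, positions and exon lengths came from GENCODE M21 (42462 genes with a symbol, 1167 without), and Mkl1 and Mkl2 were found as Mrtfa and Mrtfb. The fit used limma 3.58.1 in R 4.3.3 on log2(value + 1) of all 9 libraries, with a trend of variance on mean, for genes at 10 or more in at least 3 libraries, with 2-sided p-values adjusted by Benjamini-Hochberg over 15997 genes. A count test was not run because the values are normalised. Tables and figures used Python 3.11.15, pandas 2.3.3 and matplotlib 3.10.9, and the fit was tested on simulated data.

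The genes named are the 9 members, up to 3 genes of each list with the smallest adjusted p in KI against WT and in KI_Chd7del against KI among those that passed, the 3 genes most like each member with a mean of at least 100, and Chd7, Myh11 and Kit. Of the genes this rule gives, 2 are not reported here. Hspa1a and genes overlapping or neighbouring a member were named after their values were seen. Members and lists were chosen with earlier results of these data known. No pairing of the libraries by replicate number was seen over all tested genes, as given with the alternatives. Alternatives were another pseudocount, other filters, column-total, upper-quartile and TMM scaling (the last from its published formula), limma without the trend, voom weights, 2-group fits, a replicate block and each library left out.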

Additional observations from a re-analysis of the deposited data

How the results depend on the processing

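Of 513 values of single AP-1 genes under 19 alternatives each, 447 kept their direction and side of the threshold, 35 fell short of it, 19 newly passed and 12 changed sign, none of the 12 from or to a passing value. The sign of KI against WT changed for Jun with scaling to the column total (0.10), without KI replicate 2 (0.14), without WT replicate 2 (0.13) and without WT replicate 3 (0.78), for Jund with scaling to the column total (0.11) and for Fosb without WT replicate 3 (0.02). In KI_Chd7del against KI it changed for Fosl2 with the column total (0.01), upper-quartile factors (0.07), TMM factors (0.01), without KI replicate 2 (0.11) and without KI_Chd7del replicate 3 (0.02), and for Junb without KI_Chd7del replicate 1 (0.05). Without 1 library, the values ran from -1.28 to 0.78 for Jun and from -1.81 to 0.02 for Fosb in KI against WT, and from -0.07 to 0.11 for Fosl2 and from -0.25 to 0.05 for Junb in KI_Chd7del against KI. The cause was not tested. The number of the 9 genes called was 2 to 6 without 1 library in KI_Chd7del against KI, with 2 without KI replicate 1 or KI_Chd7del replicate 2, and 2 to 4 in KI_Chd7del against WT, with 2 without KI_Chd7del replicate 2 or 3 or WT replicate 2, and 3 to 5 in KI against WT. Scaling to the column total gave 7 in KI_Chd7del against WT. That scaling moved the median log2 fold change of all genes to 0.26 in KI_Chd7del against WT and 0.25 in KI against WT, each 0.02 as reported, so changes under it are relative to that shift. It put the share of calls that were higher at 78.7% in KI_Chd7del against WT (49.7% as reported) and at 74.2% in KI against WT (53.9%), and upper-quartile factors gave 56.3% in KI_Chd7del against KI (43.4%). Counts over all genes stayed within 1.5 times.

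Same-numbered libraries deviated from their group means with correlations of -0.15 to 0.11, and differently numbered ones with -0.17 to 0.21. No pairing by number was seen over all tested genes. A pairing that touches few genes could not be seen this way. With the replicate block, 4 of the 9 genes were called in KI_Chd7del against KI, 4 in KI against WT and 5 in KI_Chd7del against WT, and 5952, 9121 and 7411 over all genes. Jun then passed in KI_Chd7del against KI (adjusted p = 0.0436) and against WT (adjusted p = 0.0437), and Batf in KI_Chd7del against KI did not (adjusted p = 0.079).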
